A study of Rattus norvegicus with 12 samples.

Results

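Scavenger receptors are cell-surface proteins grouped by their capacity to bind modified lipoproteins and other ligands rich in negative charge. Class A members stand on the cell as trimers with coiled or collagen-like stalks, class B members loop between a pair of membrane spans, and the class E member carries a C-type lectin-like domain. They are best known from macrophages and endothelium, where they clear oxidised lipoprotein, microbes and debris, and several of them serve lipid, iron or lysosomal traffic in fibroblasts and other tissues.

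The data on Colec12 and the other scavenger receptors come from F111, a fibroblast line of the Fischer rat, hybridised to Affymetrix rat expression arrays. The set holds 8 genes, namely the class A receptors Colec12, Scara3, Scara5 and Msr1, the class B receptors Scarb1, Scarb2 and Cd36, and the class E receptor Olr1. A member was taken from every probe set whose only gene symbol on the platform annotation is one of these 8. That gave 8 probe sets for 7 of the genes, out of 31042 probe sets tested and 14217 genes with a probe set of 1 symbol. No probe set of 1 symbol carried the name Msr1, and this gene is not analysed here. The set was drawn up with the Tumor and A16 values of these arrays known. The differences, intervals and calls of its members are therefore given as a description with no p-value printed, and nothing is inferred from them.

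The Tumor cells were F111 cells that had been held in suspension for 16 h (NA16), injected under the skin of nude mice and brought back into culture from the tumours. The A16 cells were F111 cells that had adhered to plastic for 16 h. Both groups were thus the same line, with no transgene or drug. The labels name 10% fetal calf serum for both, whereas the study's methods give more serum for tumour explants. Nude mice lack T cells but keep other host cells, and mouse RNA cannot be told from rat RNA in these values. There were 3 arrays a group, called replicate 1, replicate 2 and technical replicate 2 here. Technical replicate 2 was averaged with replicate 1, so that n = 2 per group. All levels below are log2 RMA intensity unless PLIER, another summary of the same arrays, is named. Fewer cells with a transcript and less transcript per cell cannot be told apart.

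Some facts of the arrays go with every comparison. The medians of the 6 arrays lay between 6.62 and 6.64 and their lower quartiles between 5.22 and 5.33. Poly-A spikes, added to RNA before labelling, averaged 4.75 to 4.92 on the Tumor arrays and 7.64 to 8.14 on the A16 arrays. The 3′ probe set of beta-actin exceeded the 5′ one by 2.25 to 2.37 on Tumor arrays and by 0.64 to 0.71 on A16 arrays. For GAPDH this excess was 0.25 to 0.33 on Tumor arrays and -0.05 to 0.00 on A16 arrays. Hybridisation spikes went the other way from the poly-A spikes, at 11.12 to 11.40 on Tumor arrays and 10.06 to 10.43 on A16 arrays. Labelling and hybridisation therefore cannot be told apart from group. Of the fibroblast markers, Vim (14.17 to 14.21 on Tumor arrays, 14.21 to 14.36 on A16 arrays) and Pdgfra (10.30 to 10.47 on Tumor arrays, 10.37 to 10.51 on A16 arrays) were bright in both groups, whereas Dcn (4.99 to 5.38 on Tumor arrays, 4.58 to 4.83 on A16 arrays), Lum (4.46 to 4.86 on Tumor arrays, 5.04 to 5.29 on A16 arrays) and Fap (5.25 to 5.37 on Tumor arrays, 5.36 to 5.49 on A16 arrays) were near or below the lower quartile in both. Of all 13, 4 fell and 1 rose, as given with the other marker lists.

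The RefSeq promoter table (GRCr8, 250 bases before to 50 after the start) held 4 of the 8 genes. The promoters of Colec12, the member that fell, of Scarb2, whose arrays stood apart in the other direction, and of Cd36, whose groups overlapped under RMA, are shown to compare their base composition. Capitals mark matches on either strand to any of 5 motifs. The TATA box was searched as the letters TATAAA. The CCAAT box of many housekeeping promoters was searched by the letters in its name. The GC box, which Sp1 binds, was searched as the letters GGGCGG. The AP-1 site was searched as the letters TGACTCA and the E-box of helix-loop-helix factors as the letters CACGTG. No matches overlapped in the sequences shown.
Colec12, chr18:1005537-1005836, plus strand: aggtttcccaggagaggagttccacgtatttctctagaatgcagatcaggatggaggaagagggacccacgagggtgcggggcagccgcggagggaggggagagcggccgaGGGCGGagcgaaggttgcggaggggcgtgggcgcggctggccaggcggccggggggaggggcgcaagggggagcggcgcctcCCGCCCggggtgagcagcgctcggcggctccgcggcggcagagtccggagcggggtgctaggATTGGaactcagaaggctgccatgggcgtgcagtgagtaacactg
Scarb2, chr14:15842333-15842632, plus strand: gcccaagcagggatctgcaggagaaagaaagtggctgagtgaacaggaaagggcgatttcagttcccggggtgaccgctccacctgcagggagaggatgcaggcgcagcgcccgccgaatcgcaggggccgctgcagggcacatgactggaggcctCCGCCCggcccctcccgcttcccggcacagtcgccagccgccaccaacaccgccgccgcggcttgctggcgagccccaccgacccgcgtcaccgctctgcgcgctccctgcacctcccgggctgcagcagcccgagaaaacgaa
Cd36, chr4:18246332-18246631, plus strand: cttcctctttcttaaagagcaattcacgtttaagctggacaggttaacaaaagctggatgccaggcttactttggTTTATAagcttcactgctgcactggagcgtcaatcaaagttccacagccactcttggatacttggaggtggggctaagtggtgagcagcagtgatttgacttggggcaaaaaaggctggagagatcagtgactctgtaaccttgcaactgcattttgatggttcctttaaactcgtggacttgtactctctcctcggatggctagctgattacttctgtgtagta

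The Colec12 and Scarb2 promoters were alike in composition, each with 29 CpG dinucleotides, more than 88.5% of the 33469 promoters in the table. Their GC content was 70.3% for Colec12 and 69.7% for Scarb2. Cd36 had 4 CpG dinucleotides at 45.7% GC, and Olr1, not shown, had 5 at 46% GC. The median of all promoters was 7. Colec12 held 2 GC boxes and 1 CCAAT box, motifs that 33.1% and 37.5% of all promoters hold, and Scarb2 held 1 GC box. Cd36 held 1 TATA box (14.2% of all promoters), and Olr1 held 1 CCAAT box and 1 AP-1 site (4.63% of all promoters). None of the 4 windows held the E-box (6.42% of all promoters) in these letters, which says nothing of the factors that bind it.

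Colec12 encodes collectin placenta 1, a membrane-bound collectin that joins a collagen-like stalk to a carbohydrate recognition domain and binds microbes and oxidised lipoprotein. Its probe set (number 1372818) read 5.84, 5.30 and 5.46 on the arrays of Tumor replicate 1, replicate 2 and technical replicate 2, and 10.77, 10.83 and 10.92 on the A16 arrays in the same order. The groups were far apart, and no array lay between them. The A16 arrays spanned 0.16 and the Tumor arrays 0.55, the widest range of any member within a group. The log2 difference was -5.36 ± 0.15 (SE, n = 2 per group), or 41.2-fold lower in Tumor cells. It was the sixth largest fall among all 31042 probe sets.

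The PLIER values of Colec12 were 4.91, 4.61 and 4.92 on the Tumor arrays and 11.02, 11.12 and 10.93 on the A16 arrays. The difference on that scale was -6.29 ± 0.16, or 78-fold. The lowest PLIER value on every array was 4, so that the Tumor values lay close to that floor, and the RMA values of Tumor cells close to the lower quartile of their arrays. Detection calls were not used here. Without any 1 of the 4 replicates the RMA difference lay between -5.54 and -5.19. Poly-A spikes and the 3′ excess of beta-actin moved with the groups as given above, and their part in the Colec12 difference was not tested.

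**Figure D1:**
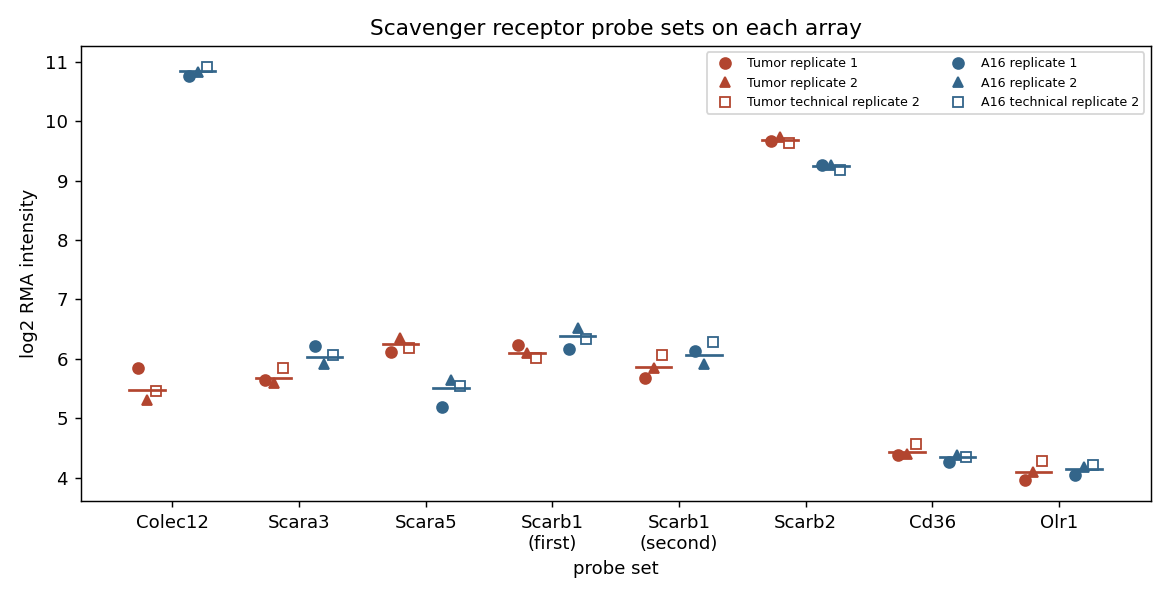
Log2 RMA intensity (vertical axis) of the 8 scavenger receptor probe sets (horizontal axis) on each array, with Tumor to the left of A16 for each probe set; circles are replicate 1, triangles replicate 2, open squares technical replicate 2, and bars the mean of 2 replicates. Colec12 lies between 5.30 and 5.84 on Tumor arrays and between 10.77 and 10.92 on A16 arrays, while the other probe sets differ by less than 2-fold.

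The other class A receptors measured differed by less than 2-fold on the RMA scale. Scara3, which human cells induce under oxidative stress, read 5.64, 5.59 and 5.85 on the Tumor arrays and 6.21, 5.92 and 6.07 on the A16 arrays. Every Tumor array was below every A16 array, although the probe set did not pass an adjusted p under 0.05. The difference was -0.36 ± 0.13, with an unadjusted 95% interval of -0.67 to -0.05. Its size depended on the summary. Under PLIER the Tumor arrays read 4.80, 4.29 and 4.28 and the A16 arrays 5.82, 5.99 and 5.71, a difference of -1.46 ± 0.16 or 2.76-fold, with Tumor values again near the PLIER floor.

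Scara5, a receptor that takes up ferritin in mouse and human cells, differed with the opposite sign. Its probe set read 6.12, 6.35 and 6.18 on the Tumor arrays and 5.18, 5.64 and 5.54 on the A16 arrays. All Tumor arrays were above all A16 arrays, and A16 replicate 1 was the lowest of them. The difference was 0.75 ± 0.14 under RMA, or 1.68-fold higher in Tumor cells, and 0.44 ± 0.16 under PLIER, where it did not pass an adjusted p under 0.05. Leaving out 1 replicate at a time gave 0.61 to 0.89.

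Among the class B receptors, Scarb2 had the narrowest spread within each group. It encodes LIMP-2, a protein of the lysosomal membrane that carries the enzyme beta-glucocerebrosidase to lysosomes. It read 9.67, 9.73 and 9.64 on the Tumor arrays and 9.26, 9.27 and 9.18 on the A16 arrays, with a spread of 0.09 in Tumor cells and 0.08 in A16 cells. The groups did not overlap, and the difference was 0.45 ± 0.11 under RMA and 0.44 ± 0.13 under PLIER, both 1.36-fold higher in Tumor cells.

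Scarb1, the receptor of high-density lipoprotein that takes up cholesteryl ester, had 2 probe sets. The first (number 1367855) read 6.23, 6.09 and 6.01 on the Tumor arrays and 6.16, 6.52 and 6.33 on the A16 arrays. The second (number 1386956) read 5.68, 5.84 and 6.06 on the Tumor arrays and 6.13, 5.91 and 6.29 on the A16 arrays. In both, the 2 groups overlapped. Their differences were -0.28 ± 0.13, with a 95% interval of -0.60 to 0.04, and -0.20 ± 0.14, with an interval of -0.53 to 0.12.

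Cd36, the fatty acid translocase and thrombospondin receptor, and Olr1, the receptor LOX-1 for oxidised low-density lipoprotein, read low under RMA, but only Olr1 did so under PLIER. Cd36 read 4.38, 4.39 and 4.56 on the Tumor arrays and 4.26, 4.38 and 4.35 on the A16 arrays (0.09 ± 0.11, interval -0.18 to 0.35). Under PLIER the Tumor arrays read 6.56, 6.25 and 6.58 and the A16 arrays 6.77, 6.70 and 6.77, close to the PLIER medians of the arrays (6.63 to 6.73). The level of Cd36 on its array thus depended on the summary. The PLIER difference, -0.33 ± 0.16, also had the opposite sign, so that no direction can be given for Cd36. Olr1 read 3.95, 4.09 and 4.28 on the Tumor arrays and 4.04, 4.18 and 4.21 on the A16 arrays (-0.05 ± 0.11, interval -0.31 to 0.21), and under PLIER 4.15 to 4.68 on the Tumor arrays and 4.41 to 4.69 on the A16 arrays. The lowest values of any probe set on these arrays under RMA were 3.52 to 3.66. A further probe set carries both the symbol Cd36 and Cd36l1, an older name of Scarb1, and so names no gene. It read 5.36 to 5.63 on the Tumor arrays and 5.30 to 5.64 on the A16 arrays.

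**Figure D2:**
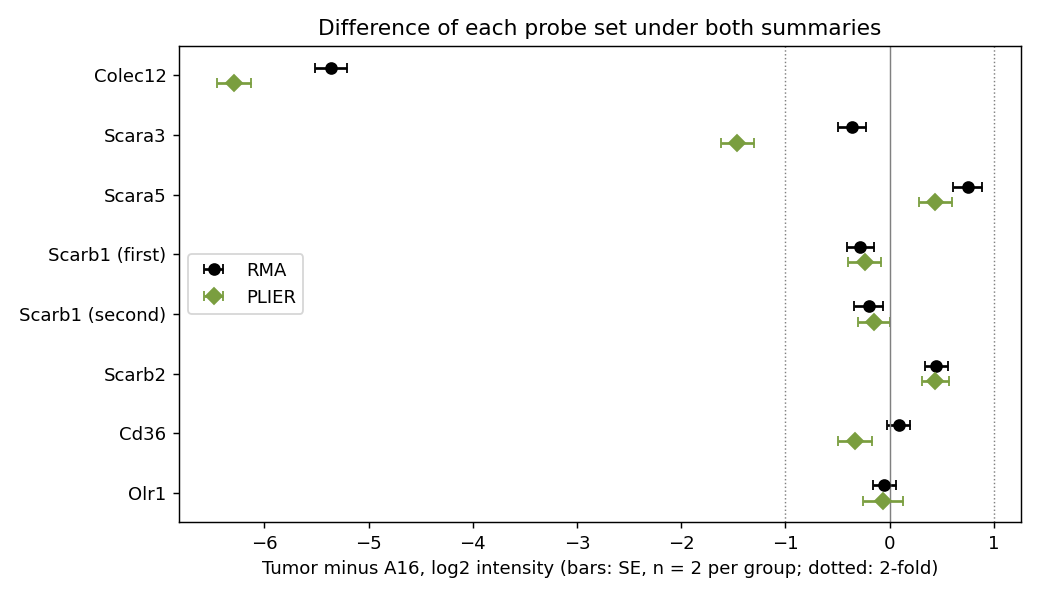
Difference in log2 intensity, Tumor minus A16 (horizontal axis), of each scavenger receptor probe set (vertical axis) under RMA (circles) and PLIER (diamonds); bars are SE with n = 2 per group and dotted lines mark 2-fold. Colec12 lies at -5.36 under RMA and -6.29 under PLIER, Scara3 passes 2-fold only under PLIER (-1.46), and Cd36 changes sign between the summaries.

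Counted by the rule used for the whole table (limma, adjusted p under 0.05 and at least 2-fold), 1 of the 8 probe sets, that of Colec12, was called, and it was lower. Of all 31042 probe sets 11.9% were called, 5.51% higher and 6.39% lower. With PLIER values the count was 2, with Scara3 added. With no minimum fold at the same adjusted p, 3 of the 8 passed under RMA, those of Colec12, Scara5 and Scarb2, against 31.8% of all probe sets. Under PLIER Scara5 did not pass and Scara3 did. The 3 Tumor arrays lay on one side of the 3 A16 arrays under RMA for 4 of the 8, against 52.6% of all probe sets. The 4 were Colec12, Scara3, Scara5 and Scarb2. Since the set was chosen on this contrast, nothing is read from these counts. No filter on low values was applied, and 6 of the 8 probe sets lay above the 30th percentile of mean intensity, with Cd36 and Olr1 below it.

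Of 14216 other genes, each by its brightest probe set, those with the pattern most like Colec12 over the 6 arrays were Meox2, a homeobox gene of mesoderm, Spats2l, Heph, which encodes a copper-dependent ferroxidase, Rtp4 and Ifit3. Likeness was measured as the root mean square distance between values from which each gene's own mean over the 6 arrays had been taken, and it was 0.21, 0.28, 0.29, 0.31 and 0.39 on the log2 scale. The 6 arrays form 2 groups, so the distance reflects mainly the size of the group difference. Meox2 read 5.06, 5.09 and 4.88 on the Tumor arrays and 10.60, 10.39 and 10.50 on the A16 arrays. Rtp4 and Ifit3, both inducible by interferon, had differences of -4.79 ± 0.11 and -4.66 ± 0.13. In the RefSeq table the 5 genes lie on chromosomes 6, 9, X, 11 and 1, and Colec12 on chromosome 18.

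**Figure D3:**
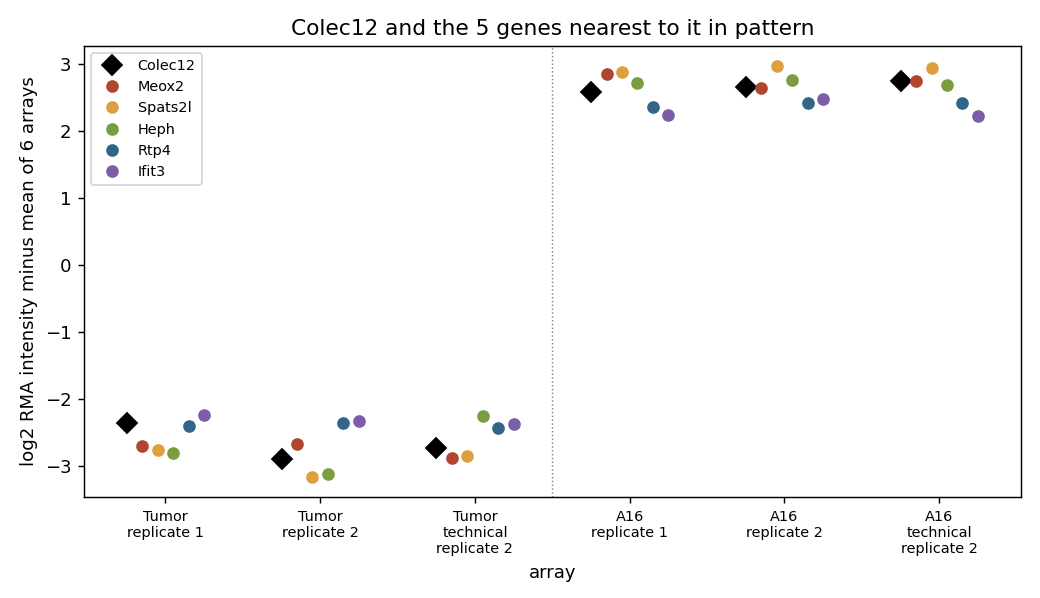
Log2 RMA intensity minus the mean of 6 arrays (vertical axis) for Colec12 (diamonds) and the 5 genes nearest to it (circles) on each of the 3 Tumor and 3 A16 arrays (horizontal axis). All 6 genes are low on Tumor arrays and high on A16 arrays, and the 5 differ by -4.66 (Ifit3) to -5.90 (Spats2l). The root mean square distance of the 5 from Colec12 is between 0.21 and 0.39.

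Colec12 lies on chromosome 18. Among the 4 nearest measured genes on each side in RefSeq order, 0 of 8 were called lower by limma under RMA or PLIER, with 3 higher and 0 lower at an unadjusted p under 0.05. Usp14, a proteasome-associated deubiquitinase, was at 0.56 ± 0.11 (adjusted p 0.00862), under 2-fold. Zfp136, a zinc finger gene, was called higher (1.73 ± 0.12). The adjacent genes differed by -0.03 ± 0.11 for Cetn1, a centrin, and by 0.31 ± 0.12 for Thoc1, a subunit of the THO complex of mRNA export. Over all genes 5.45% were called higher and 5.44% lower. These neighbours were named for their position.

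Scara5 and Scara3 lie close together on chromosome 15, with 3 measured genes between them. The 3 are Pbk, a mitotic kinase, Esco2, an acetyltransferase of sister chromatid cohesion, and Ccdc25. Their differences were -0.60 ± 0.16, -0.60 ± 0.12 and -0.55 ± 0.16, with Scara5 at 0.75 ± 0.14 on one side of them and Scara3 at -0.36 ± 0.13 on the other. The gene after Scara3, Clu, which encodes the secreted chaperone clusterin, fell by 1.59 ± 0.12 (limma adjusted p 0.000235). Scara5 was thus the only 1 of these 6 genes above 0. On the far side of Scara5, Elp3 was at -0.35, Pnoc at 0.10, Zfp395 at -0.38 and Fbxo16 at 0.05, none of them called. Beside Scarb2, 2 of 8 neighbours were lower, the chemokine genes Cxcl11 (-3.81 ± 0.12) and Cxcl10 (-4.59 ± 0.13), while Scarb2 itself was at 0.45 ± 0.11. Beside Cd36, 2 of 8 were higher, the growth factor gene Hgf (1.85 ± 0.11) and Phtf2 (1.42 ± 0.15). One neighbour each was higher beside Scarb1 (Ccdc92, 1.06 ± 0.19) and Msr1 (Dlc1, 1.18 ± 0.14), and none was called beside Olr1.

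**Figure D4:**
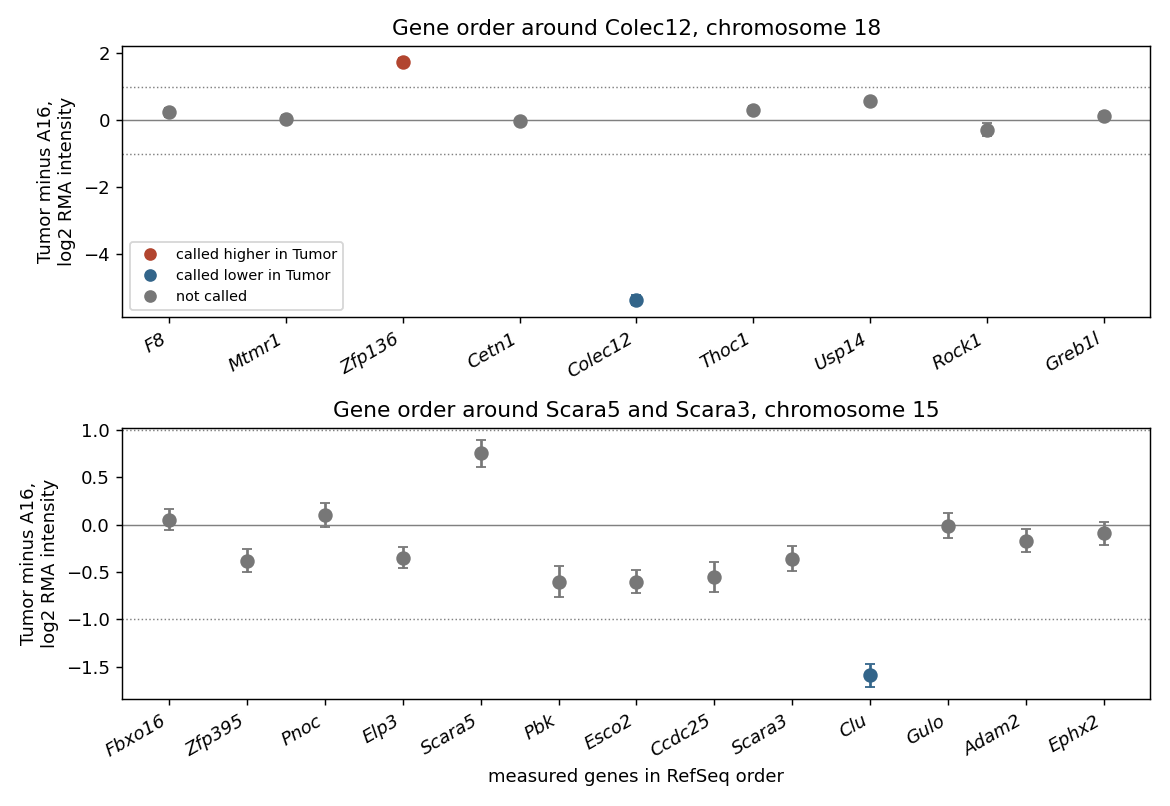
Difference in log2 RMA intensity, Tumor minus A16 (vertical axes), of measured genes in RefSeq order (horizontal axes) around Colec12 on chromosome 18 (top) and around Scara5 and Scara3 on chromosome 15 (bottom); bars are SE with n = 2 per group, smaller than the points at the top, and dotted lines mark 2-fold. Colec12 stands alone at -5.36 among neighbours between -0.28 and 1.73, and Clu is the only gene past 2-fold in the lower row.

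The remaining sections describe genes of the same pathways, from lists that did not include the 8 receptors. Each gene is represented by its brightest probe set, and 10.9% of all genes were called. Without the fold limit 2468 of all 14217 genes were higher and 2359 lower at the same adjusted p. The share of all genes at an unadjusted p under 0.05 is not given, so nothing is read from counts at that limit. The median difference over all genes was 0.03. Among 14 other scavenger receptors, 11 were measured, of which 1 rose, 2 fell and 8 were not called (median 0.12). Cd68, a lysosomal sialomucin that binds oxidised lipoprotein, read 7.11, 7.03 and 7.19 on the Tumor arrays and 5.99, 5.95 and 6.16 on the A16 arrays, a rise of 1.07 ± 0.12 (adjusted p 0.000965). Scarf2, a class F receptor, fell by 1.16 ± 0.11 (adjusted p 0.000581), and its 3 other probe sets had -1.93, -1.90 and -0.20. Cxcl16, a chemokine whose membrane-bound form takes up oxidised lipoprotein and phosphatidylserine, fell by 1.02 ± 0.11 (adjusted p 0.00103), just past 2-fold. It was at -0.97 without A16 replicate 2 and also without Tumor replicate 1, and the call was lost in both. Stab1 and Stab2, the class H stabilins, differed by 0.62 ± 0.14 each and were not called.

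Collectins and complement proteins share ligands with Colec12. Some soluble collectins start the lectin pathway through proteases of the MASP family, and the proteases C1r and C1s act in the classical pathway. Of 28 genes listed 21 were measured, of which 2 rose, 1 fell and 18 were not called (median 0.13, and 0.25 under PLIER). PLIER called 3 higher and 1 lower, with Serping1 added at 2.94, where RMA gave 0.51. Masp1 read 5.84, 5.81 and 5.63 on the Tumor arrays and 9.95, 9.76 and 10.09 on the A16 arrays, a difference of -4.12 ± 0.13 or 17.4-fold lower (adjusted p 1.39e-05). Its other 2 probe sets had differences of -0.17 and -0.86 and were not called. C1s went the other way at 11.75, 11.71 and 11.73 on the Tumor arrays and 8.87, 8.97 and 8.92 on the A16 arrays, a rise of 2.79 ± 0.11 or 6.92-fold (adjusted p 2.22e-05). C1r differed by 0.79 ± 0.11, under 2-fold. Cd55, which protects cells by breaking up complement convertases, rose by 1.52 ± 0.11, with 0.72 on its other probe set. The soluble collectins Mbl1, Mbl2, Sftpa1 and Sftpd differed by -0.13 to 0.20 and Colec11 by 0.56 ± 0.11, none of them called.

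Scarb1 exchanges cholesterol with high-density lipoprotein, and the transporters Abca1 and Abcg1 export it. Of 24 genes of lipoprotein and cholesterol handling 20 were measured, of which 1 rose, 1 fell and 18 were not called (median 0.11, and 0.03 with all probe sets of a gene averaged or 0.25 without dim probe sets). The count of higher genes was 3 under PLIER, 2 without A16 replicate 1 and 2 without Tumor replicate 2, where 2 were lower. Abca1 read 9.09, 8.97 and 9.23 on the Tumor arrays and 6.97, 6.94 and 6.99 on the A16 arrays, a rise of 2.10 ± 0.12 or 4.28-fold (adjusted p 7.73e-05), with 2.16, 1.94 and 1.17 on its other probe sets. Vldlr, a receptor of triglyceride-rich lipoproteins, fell by 1.68 ± 0.14 or 3.21-fold (adjusted p 0.000312), with -1.90, -1.67 and -0.34 on its others. Abcg1 was at 0.76 ± 0.17, under 2-fold, with 0.52 and -0.58 on its other probe sets, so that its direction differed between probe sets. Soat1 and Osbp were not called on their brightest probe sets (-0.24 and 0.11), but their other probe sets, at -1.94 and -1.56, were called lower. The HDL receptor itself, Scarb1, lay at -0.28 and -0.20 on its 2 probe sets, and the difference between it and Abca1 was not tested.

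Cd36 hands long-chain fatty acids to binding proteins and acyl-CoA synthetases, and PPAR factors control many of these genes. All 20 genes of this list were measured, of which 1 rose, 0 fell and 19 were not called (median 0.34, and 0.12 with all probe sets of a gene averaged). At an unadjusted p under 0.05, 10 were higher and 1 lower. Without the fold limit 10 passed the adjusted p upwards and 0 downwards, against 2468 and 2359 of all 14217 genes. Among the 10 were the synthetases Acsl1, Acsl3, Acsl4 and Acsl5 at 0.41 to 0.87, but other probe sets of Acsl1 were at -0.04 and -0.30 and that of Acsl5 at -0.16. Cpt1a, which commits fatty acids to oxidation in mitochondria, rose by 1.26 ± 0.13 (adjusted p 0.00077), but its other probe set, at -1.07, was called lower. Plin2 and Cav2 were not called on their brightest probe sets (0.10 and 0.17). Another probe set of Plin2 (1.90) was called higher, as were those of Cav2 at 1.61 and 1.04, but not the one at 0.29. PLIER called 4 genes higher, with Lpl at 2.36, Fabp5 at 2.49 and Fabp4 at 1.03 beside Cpt1a, where RMA gave 0.68, 0.52 and 0.61. Pparg, the receptor that induces Cd36 in macrophages and adipocytes, differed by 0.07 ± 0.14.

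Cd36 binds some thrombospondins and works with Toll-like receptors, kinases and tetraspanins. The list took thrombospondins by family, whether or not Cd36 binds them. Of its 12 genes 10 were measured, with Thbs1 and Tlr6 missing. Of these 10, 3 rose, 2 fell and 5 were not called (median 0.14). The tetraspanin Cd9 read 8.82, 8.60 and 8.60 on the Tumor arrays and 5.68, 5.78 and 6.12 on the A16 arrays, a rise of 2.82 ± 0.12 or 7.04-fold. Cd81, another tetraspanin, rose by 1.56 ± 0.11, and the kinase Fyn by 2.57 ± 0.11 with 0.62 on its other probe set. Thrombospondin 3, Thbs3, fell by 2.45 ± 0.12 or 5.46-fold, and Tlr4, the endotoxin receptor, by 1.11 ± 0.11. The adjusted p of these 5 genes was between 2.59e-05 and 0.000623. Cd81 and Tlr4 are named beyond the 3 with the largest change. PLIER called 4 genes of this list higher and 2 lower, with Thbs2 added at 1.78, where RMA gave 0.07. The list median was 0.28 under PLIER.

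Scarb2 belongs to the lysosomal membrane. Of 26 lysosomal genes listed 20 were measured, of which 1 rose, 1 fell and 18 were not called (median 0.29, and 0.14 with all probe sets of a gene averaged). Without the fold limit 10 passed the adjusted p upwards and 1 downwards, against 2468 and 2359 of all 14217 genes. PLIER called 2 higher and 1 lower, with Asah1 added at 1.09, where RMA gave 0.93. Lamp1 and Lamp2, the main glycoproteins of the lysosomal membrane, were at 0.39 ± 0.11 and 0.61 ± 0.16, beside 0.45 ± 0.11 for Scarb2. The other probe sets of Lamp1 were at 0.82 and -0.49, so that its direction differed between probe sets. Tfe3 and Gaa were not called on their brightest probe sets (0.65 and -0.03), but each had another, at -1.06 and -1.49, that was called lower. Glb1, lysosomal beta-galactosidase, rose by 1.01 ± 0.13 (adjusted p 0.00155). It fell short of 2-fold in 5 of 14 alternatives, at 0.90 without Tumor replicate 2 and 0.99 without A16 replicate 1. Neu1, a sialidase, fell by 1.21 ± 0.25 (adjusted p 0.0122), and that call was lost without A16 replicate 2 (-0.81) and without Tumor replicate 1 (-1.10).

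Scara5 takes up ferritin. Of 11 genes of ferritin and iron uptake 9 were measured, and the ferritin genes themselves, Fth1 and Ftl1, were not. Of these 9, 1 rose, 0 fell and 8 were not called. The median was -0.07, but 0.11 under PLIER, which called 2 lower, and 0.04 without Tumor replicate 1. At an unadjusted p under 0.05, 2 were higher and 3 lower, and without A16 replicate 1 limma called 1 lower. Hmox1, the heme oxygenase that frees iron from heme, rose by 1.52 ± 0.16 or 2.86-fold (adjusted p 0.000838). The transferrin receptor Tfrc differed by -0.40 ± 0.13, and its other probe set, at -1.24, was called lower. The iron transporter Slc11a2 differed by -0.86 ± 0.12, under 2-fold, and was called lower under PLIER (-1.08). Its other probe set, at -1.07, was called lower under RMA. Slc40a1 was at -0.07 ± 0.13, with 1.02 (called higher) and 0.14 on its other probe sets.

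**Figure D5:**
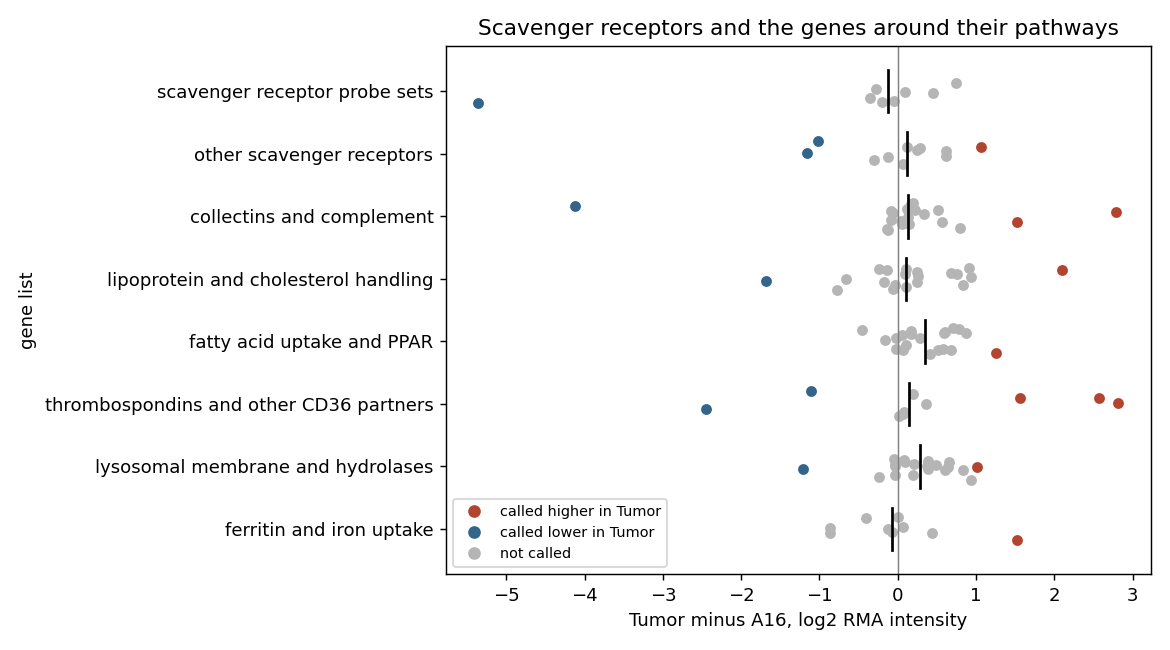
Difference in log2 RMA intensity, Tumor minus A16 (horizontal axis), of the 8 scavenger receptor probe sets and of the genes of 7 lists (vertical axis); each point is a probe set or gene, red called higher, blue called lower and grey not called, and black bars are medians. List medians lie between -0.07 and 0.34, with Colec12 (-5.36) and Masp1 (-4.12) far to the left of the rest.

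Since scavenger receptors are known from macrophages, endothelium and fat cells, the markers of these cells are given beside them. Of 17 measured macrophage markers 2 rose, the receptor Csf1r (8.59, 8.62 and 8.54 on the Tumor arrays and 5.67, 5.29 and 5.58 on the A16 arrays, 3.14 ± 0.14) and Cd68. By limma 0 fell under RMA or PLIER, and 4 were higher and 0 lower at an unadjusted p under 0.05. Their summed linear intensity was 2188 to 2287 on Tumor arrays and 1761 to 1943 on A16 arrays. Of the others, Ptprc, Adgre1, Tyrobp and Fcer1g differed by -0.07, 0.14, 0.24 and 0.33 and were not called. Ptprc, the leukocyte antigen CD45, was at 4.78 to 5.42 on Tumor arrays and 5.07 to 5.20 on A16 arrays. Ptprc, Adgre1 and Tyrobp lay near or below the lower quartile of the arrays, where little can be read from the lack of a call. Cd14 was at 9.70 to 9.85 on Tumor arrays and 9.86 to 10.01 on A16 arrays.

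Of 10 endothelial markers 0 were called by limma under RMA, with 2 higher and 2 lower at an unadjusted p under 0.05, and PLIER called 1 higher and 2 lower. Pecam1 was at 0.53 ± 0.15 and Vwf at 0.73 ± 0.11, both under 2-fold, and Egfl7 at -0.66 ± 0.14. Their summed intensity was 771 to 830 on Tumor arrays and 863 to 1021 on A16 arrays. Of 7 adipocyte markers 1 fell, complement factor D, Cfd (-1.05 ± 0.11), a call lost at -0.99 when arrays were quantile normalised again. The sums were 424 to 466 on Tumor arrays and 540 to 594 on A16 arrays. Of 13 fibroblast markers 4 fell, Col1a1 (-3.46 ± 0.20), Thy1 (-1.95 ± 0.11), Col1a2 (-1.39 ± 0.11) and Fn1 (-1.27 ± 0.13), and Fbn1 rose (1.21 ± 0.12). Their sums were 55034 to 56365 on Tumor arrays and 82476 to 90676 on A16 arrays. The part of cell makeup in the Colec12 and Scara5 differences was not tested.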

How the data were processed

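Total RNA of F111 cells was labelled and hybridised to Affymetrix rat expression arrays, 3 of Tumor cells and 3 of A16 cells. Scanner software corrected the background, and Avadis then normalised with RMA and with PLIER, as the methods and the submitters' processing notes give them. Software versions for RMA and PLIER were not given in the sources used. The authors deposited intensity values on a linear scale for both, as 12 records of 6 arrays, and log2 was taken here. The lowest PLIER value was the same on every array (4 on the log2 scale).

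Of 31099 probe sets 57 controls were left out. The platform annotation gave 1 symbol to 20826 of the rest, and 20758 of these matched the RefSeq gene table (GRCr8) by Entrez identifier, which supplied current symbols and gene order. Technical replicate 2, which has no biological number in the labels, was averaged with replicate 1. No label states that replicates were separate cultures or animals. Every p-value is therefore set against sample-to-sample spread alone, which may be technical. Tumor was compared with A16 by limma 3.58.1 in R 4.3.3, two-sided, with Benjamini-Hochberg adjustment over 31042 probe sets, and the fit was tested on simulated data. Errors are moderated standard errors, and precision is limited by how few arrays there were.

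The members and gene lists were chosen with earlier results of these data known. Genes were named if they were members, among the 3 largest called changes of a list, called or bright markers of other cell types, or among the 5 nearest to Colec12. Other genes named from lists were chosen after their values were seen. Alternatives covered PLIER and its offset, normalisation, a filter on dim probe sets, technical replicate 2, each replicate left out, a replicate block and the methods' t-test.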

Additional observations from a re-analysis of the deposited data

How the results depend on the processing

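As a description of the contrast that chose it, the Colec12 difference was -5.19 to -5.54 with 1 replicate left out, -6.29 under PLIER and -7.46 with PLIER less its lowest value plus 1. The count of scavenger receptor probe sets called was 1 in 12 limma alternatives and 2 under both PLIER settings, where Scara3 was added (-1.46 and -2.90). Cd36 changed sign under both (-0.33 and -0.39). No other member changed its sign or its call in these alternatives, and Cd36 and Olr1 were absent from the filtered table. With PLIER less its lowest value plus 1, the probe sets called higher in the whole table numbered 3113 in place of 1709.

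The methods' t-test on the same values called 1607 probe sets higher and 1493 lower at over 2-fold and an unadjusted p under 0.05, 1 of them a member, and 4 higher and 8 lower after Benjamini-Hochberg adjustment, of which 0 were members. With the replicate number as a block, 1715 probe sets were higher and 2035 lower, and Colec12 was unchanged at -5.36. The labels do not say that equal numbers mark paired samples, and the deviations of equal-numbered replicates correlated at 0.121. Over the gene lists, 44 counts of higher genes stayed within 1.5 times and 5 did not, and 42 counts of lower genes did and 7 did not. Of the list medians, 32 stayed within the spread between replicates and 24 did not. The collectin and complement median was 0.00 without A16 replicate 2. Changes near the floor of the arrays are limited by signal over background, which detection calls were not used to judge.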
